A study of Rattus norvegicus with 6 samples.

Results

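The genes described here are 10 markers of injury to the kidney tubule, namely Havcr1, Lcn2, Clu, Spp1, Timp1, Tff3, Vcam1, Cd44, Krt8 and Icam1, measured in the renal cortex of male rats. They were named as markers from general knowledge, and every array probe whose RefSeq transcript belongs to 1 of them was taken. This gave 17 probes of the 61537 on each array, for 10 of the 15645 gene symbols that probes could be matched to. Cd44 had 6 probes, Clu and Tff3 had 2 each, and each of the other 7 genes had 1.

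The study compared 3 rats given water with 3 rats dosed with dipropylene glycol at 1000 mg/kg/day, both for 4 weeks. Dipropylene glycol (DPG) is a solvent of the glycol family. All 6 were male Sprague-Dawley rats of the Crl:CD(SD) stock, bought at 5 weeks of age and kept on the same basal diet with tap water. RNA of each animal's renal cortex, the outer zone of the kidney that contains glomeruli and proximal tubules, was hybridised to its own Agilent one-colour array. The labels name no histology, urine or serum measurement, so the injury state of these kidneys is known here only through their RNA.

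Tubule cells that are stressed or damaged switch on a set of genes that healthy tubules express weakly, and several of their products are shed into urine and used as markers in rat toxicity studies. Some act on the damaged tissue itself, as receptors for dead cells, chaperones or matrix proteins, and others mark the inflammation around it. Tff3 differs from the rest in that its level in rat urine is known to fall, not rise, with tubular injury.

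Values are given as scaled signal, which is a spot's processed brightness as a multiple of the 75th percentile of its own array. A level of 1 probe is comparable between animals but not with the level of another probe. Between 39556 (water 3) and 43184 (water 2) probes per array were well above background, and the DPG arrays had 41524 to 41937. Water 3 also held 34 spots with outlier flags, where no other array had more than 4, so marker values that turned sign without it, and printed list counts at the unadjusted threshold that changed, are given both ways. Slide and scan cannot be told apart from treatment, since each group had a slide and a scan of its own. The number of arrays limits the precision, and in whole cortex fewer cells of a type and less RNA per cell cannot be told apart.

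None of the 10 markers passed the adjusted threshold between DPG and water, and neither did any of the 31641 features tested (0% called, smallest adjusted p = 0.135 by limma with Benjamini-Hochberg adjustment over all features). Of the markers, 6 had log2 fold changes above 0 and 4 below, with a median of 0.04 beside a median of 0.00 over all features. At an unadjusted threshold of 0.05 in limma, 3 of the 10 markers passed, where 12.3% of all features did. Tff3 was the 1 marker higher in the DPG rats (6.6% of features), and Krt8 and Icam1 were the 2 lower (5.69% of features). The same 3 were the markers whose groups did not overlap, as was the case for 19.6% of all features (10.6% with the DPG rats above and 9.01% with them below). The markers usually read as signs of damage, Havcr1, Lcn2, Clu, Spp1 and Timp1, all had overlapping groups.

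The arrays bounded the size of change that could have gone unseen. Taking the probe that stood for each gene, the 95% interval of the fold change lay within 2-fold in either direction for 9 of the 10 markers. Lcn2 was the exception. The second probes of Tff3 and Clu also reached past 2-fold, with log2 intervals of 0.18 to 1.06 and -1.05 to 0.50. Havcr1 counts among the 9, though it was measured near the limit of detection. For 4 of the markers, Timp1, Vcam1, Krt8 and Icam1, the interval lay within 1.5-fold. All 10 markers were well above background on all 6 arrays.

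**Figure D1:**
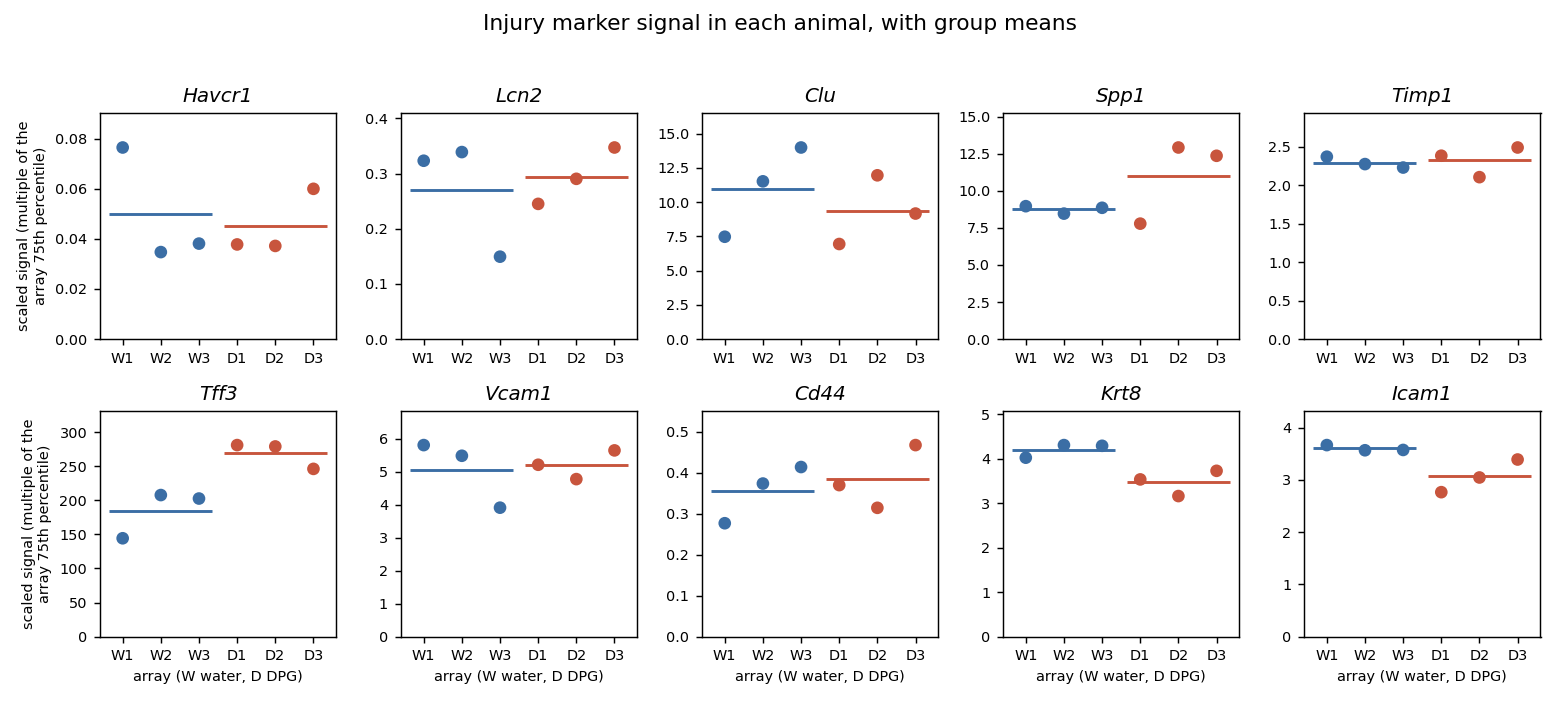
Scaled signal (multiple of the array's 75th percentile, linear axes from 0) of the 10 injury markers in each animal, with W for water and D for DPG and a bar at the mean of each group of 3. The 3 DPG points lie above the 3 water points for Tff3 and below them for Krt8 and Icam1, and the groups overlap for the other 7 genes.

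**Figure D2:**
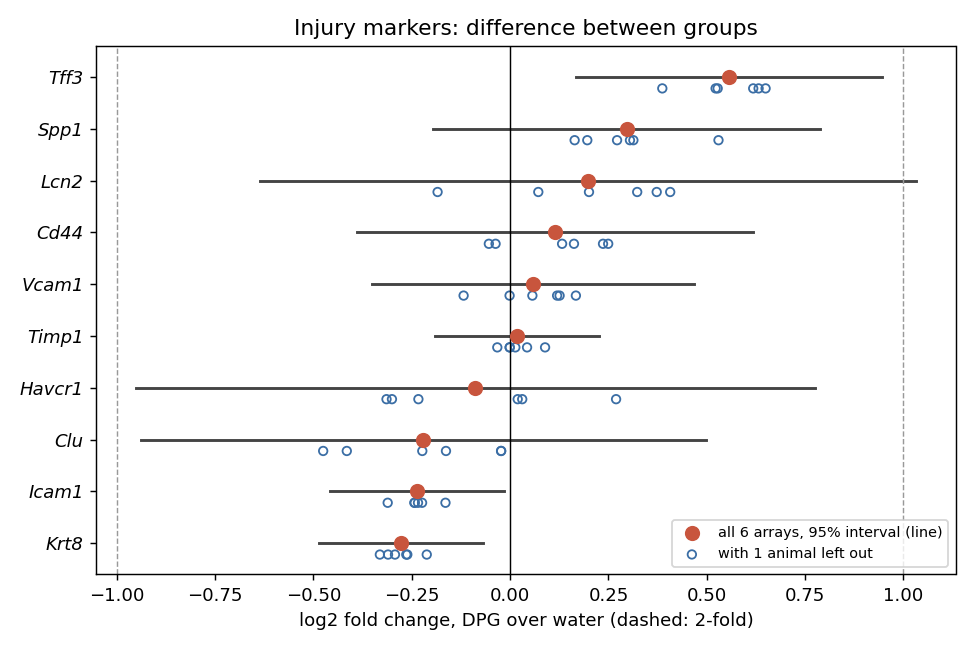
Log2 fold change of each marker, DPG over water, with the 95% interval from limma over all 6 arrays (line) and the value with 1 animal left out at a time (open circles). The intervals of Tff3, Krt8 and Icam1 do not reach 0, and the open circles of Havcr1, Lcn2, Cd44, Vcam1 and Timp1 fall on both sides of it.

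Tff3 showed the largest difference of the 10 markers. It encodes trefoil factor 3, a small secreted peptide that protects and repairs epithelial surfaces. Its scaled signal was 144.3, 207.7 and 202.6 in water rats 1 to 3 and 281.0, 279.0 and 246.1 in DPG rats 1 to 3. Each DPG rat was above each water rat, and water 1 was the lowest animal. The log2 fold change was 0.56 ± 0.16 (SE, n = 3 and 3), or 1.47-fold with a 95% interval of 1.12 to 1.92, and it was not called (limma adjusted p = 0.310). The second Tff3 probe gave 0.62 ± 0.18, with 103.5 to 157.6 in the water rats and 190.2 to 220.2 in the DPG rats. Its groups did not overlap either. Without water 1 the log2 fold change of Tff3 was 0.39, and without any other animal it lay between 0.52 and 0.65.

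Of the other trefoil factors, Tff1 and Tff2 had no probe well above background on all arrays of either group. In the list of trefoil, lipocalin and TIM family relatives with their receptors, 9 of 14 genes were tested, and 2 were higher and 0 lower at the unadjusted threshold. Without water 3, 0 of 10 were higher and 1 lower. That 1 was Tff1 (-0.64 ± 0.17), which was tested only with water 3 left out. The DPG arrays were the same with and without water 3, so Tff1 entered the test through the water group only. Entry through that group favours a lower value in the DPG rats, so no conclusion is drawn from it. Slc22a17, which encodes a receptor for lipocalin 2, had a log2 fold change of 0.19 ± 0.07 (limma adjusted p = 0.362). The lipocalin family gene Lcn12 had 0.30 ± 0.11, and Lrp2, which encodes the endocytic receptor megalin, had 0.11 ± 0.08. The median of the list was 0.12.

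Genes that mark segments of the proximal tubule were taken beside Tff3. The convoluted segments come first along the tubule and the straight segment follows. Of 7 straight-segment markers, 5 were above 0 (median 0.43), with 4 higher and 1 lower at the unadjusted threshold, or 4 and 0 without water 3, and 0 past the adjusted one. Their summed scaled signal was 361.8 to 442.8 in the water rats and 533.8 to 580.0 in the DPG rats. Slc7a13 carried that gap in the sum, in which bright probes weigh most: without it the sums were 221.1 to 237.5 and 230.3 to 253.9, and the groups overlapped. The mean log2 shift from the water rats, which weighs the 7 markers equally, was -0.175 to 0.133 in the water rats. It was 0.268 to 0.449 in the DPG rats, without overlap. Slc7a13, an amino acid transporter gene of the straight segment, read 140.7, 201.8 and 205.3 in the water rats and 326.1, 313.9 and 288.4 in the DPG rats. Water 1 was its lowest animal too, and its log2 fold change was 0.78 ± 0.16 (limma adjusted p = 0.253).

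The other straight-segment genes did not all move one way. The organic anion transporter gene Slc22a13 had 0.69 ± 0.14 and the amino acid transporter gene Slc6a18 had 0.43 ± 0.12. Cyp2e1, a cytochrome P450 gene, had -0.34 ± 0.12 and was the 1 lower. All 6 convoluted-segment markers were below 0 (median -0.29), with 4 lower at the unadjusted threshold, or 2 without water 3, and 0 past the adjusted one. Among them the glucose transporter gene Slc2a2 had -0.40 ± 0.13, the bicarbonate transporter gene Slc4a4 -0.30 ± 0.10 and the monocarboxylate transporter gene Slc5a12 -0.29 ± 0.08. The summed signal of this list was 557.3 to 610.1 in the water rats and 479.3 to 541.4 in the DPG rats. Beside the counts of both lists, 6.6% of all features were higher and 5.69% lower at the unadjusted threshold. The part of either list in the Tff3 difference was not tested.

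**Figure D3:**
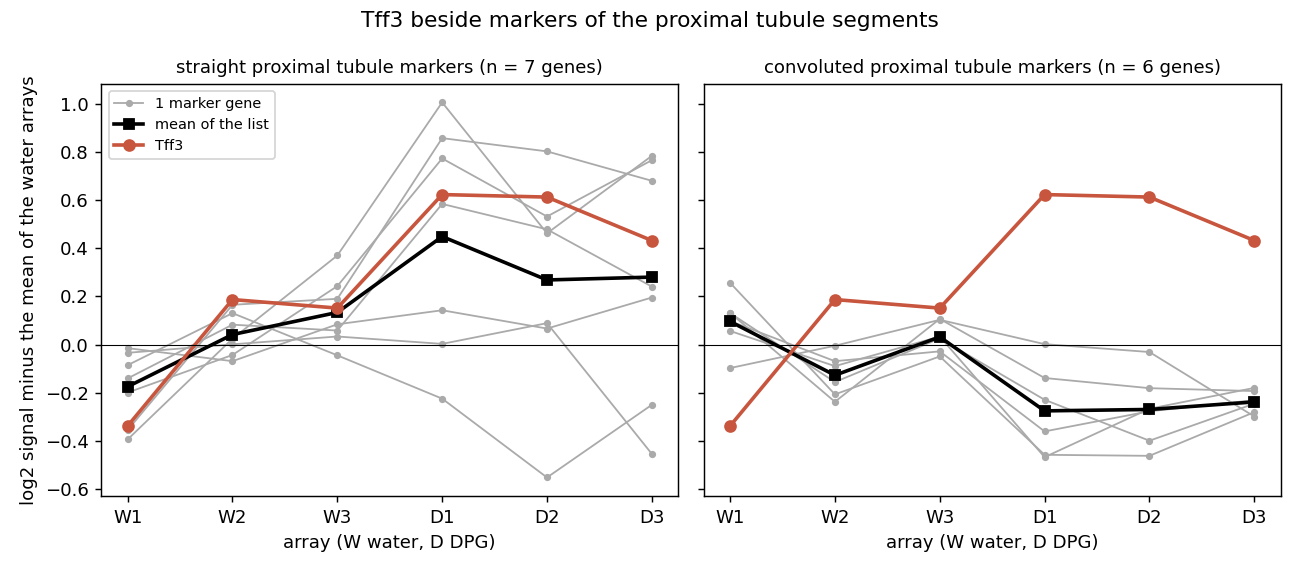
Log2 scaled signal minus the mean of the water arrays for Tff3 (red) beside 7 straight-segment markers (left) and 6 convoluted-segment markers (right) of the proximal tubule in each animal, with W for water, D for DPG, grey lines for single genes and black squares for the mean of the list. Tff3 is lowest in water 1 and above the other water rats in all 3 DPG rats, and the mean of the left list has the same order of groups while that of the right list is lower in the DPG rats.

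Krt8 was lower in the DPG rats. It encodes keratin 8, which pairs with keratin 18 to form the filaments of simple epithelia and is induced in stressed tubule cells. Its signal was 4.02, 4.30 and 4.29 in the water rats and 3.53, 3.16 and 3.72 in the DPG rats, with no overlap. Its log2 fold change was -0.28 ± 0.09 (n = 3 and 3), with a 95% interval of -0.49 to -0.07, and it was not called (limma adjusted p = 0.327). After normexp background correction, a model that removes local background without negative values, it was -0.44.

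Its partner Krt18 had -0.16 ± 0.09, from 6.74 to 7.47 in the water rats and from 6.10 to 7.04 in the DPG rats, and the groups overlapped. Krt7, a keratin of ducts, had -0.13 ± 0.07, and the cell junction gene Ppl, which encodes periplakin, had 0.20 ± 0.12. Of 12 keratin and desmosome genes 8 were tested, with 3 above and 5 below 0 (median -0.04), and 0 passed the unadjusted threshold in either direction, or the adjusted one, by limma. Collecting duct markers, another epithelium with Krt8, summed to 158.7 to 197.9 in the water rats and 159.1 to 203.3 in the DPG rats. Aqp4, a water channel gene of the collecting duct, had 0.29 ± 0.09, Aqp3 had -0.39 ± 0.19 and the steroid enzyme gene Hsd11b2 had -0.17 ± 0.11. Of the 9 genes tested in that list, 1 was higher and 0 lower at the unadjusted threshold.

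Icam1 was the second marker that was lower in the DPG rats. It encodes intercellular adhesion molecule 1, an adhesion protein of endothelial and injured tubule cells that binds leukocyte integrins. Scaled signal was 3.67, 3.57 and 3.57 in the water rats and 2.77, 3.05 and 3.39 in the DPG rats. The groups did not overlap, and DPG 3 was closest to the water rats. The difference on the log2 scale was -0.24 ± 0.09 with a 95% interval of -0.46 to -0.02, and it was not called (limma adjusted p = 0.391). With 1 animal left out it kept its sign in 6 of 6 fits, from -0.31 to -0.16, and passed the unadjusted threshold in 1 of them.

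Vcam1 encodes vascular cell adhesion molecule 1, which like Icam1 holds leukocytes to activated endothelium and also marks proximal tubule cells that fail to repair. Its scaled signal was 5.82, 5.49 and 3.92 in the water rats and 5.22, 4.78 and 5.65 in the DPG rats. Water 3 was the lowest animal, and the other 5 lay between 4.78 and 5.82. The log2 fold change was 0.06 ± 0.17 (95% interval -0.35 to 0.47, limma adjusted p = 0.911), and without water 3 it was -0.12.

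Inflammatory and endothelial genes gave these values beside both adhesion genes. Of 24 genes of the NF-kappaB pathway and its inflammatory targets 16 were tested, with 7 above and 9 below 0 (median -0.01), and 0 passed the unadjusted threshold in either direction, or the adjusted one, by limma. The chemokine gene Cxcl10 had 0.38 ± 0.20, Ccl2, which encodes a monocyte chemoattractant, had -0.48 ± 0.31, and the pathway subunit gene Nfkb2 had 0.10 ± 0.07. Il6, Sele, Selp and Ptgs2 had no probe that passed the filter. Ptgs2 passed it with water 3 left out (-0.15 ± 0.47). Of 10 tested endothelial markers 3 were above and 7 below 0 (median -0.06), with 0 past the unadjusted threshold by limma, or 1 without water 3 (Esam), and their summed signal was 81.2 to 85.2 in the water rats and 78.2 to 82.8 in the DPG rats. Pecam1, the endothelial adhesion gene, had 0.18 ± 0.08, the junction gene Esam 0.23 ± 0.12 and the endothelial cadherin gene Cdh5 -0.14 ± 0.08. The part of endothelial cell content in the Icam1 and Vcam1 values was not tested.

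Lcn2 encodes lipocalin 2, also called neutrophil gelatinase-associated lipocalin, which binds iron-carrying siderophores and is made by neutrophils and by damaged tubules. Its signal was 0.323, 0.339 and 0.149 in the water rats and 0.245, 0.290 and 0.347 in the DPG rats. Water 3 was again the lowest animal, and the groups overlapped. Its log2 fold change was 0.20 ± 0.34 (95% interval -0.64 to 1.03, limma adjusted p = 0.841), and without water 3 it was -0.18. Its standard error was larger than that of 95.1% of all genes tested.

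Markers of leukocytes, which also make Lcn2, were taken beside it. S100a9 and S100a8 encode the calprotectin subunits of neutrophils and monocytes. S100a9 read 0.316, 0.448 and 1.01 in the water rats and 0.240, 0.148 and 0.195 in the DPG rats, a log2 fold change of -1.46 ± 0.44 that was not called (limma adjusted p = 0.327). S100a8 read 0.128, 0.195 and 0.465 in the water rats and 0.108, 0.0651 and 0.0813 in the DPG rats (-1.45 ± 0.48). Both were highest in water 3, the animal in which Lcn2 was lowest, and without it they had -0.98 ± 0.26 and -0.93 ± 0.28. Cd3e, the T cell receptor chain gene, had 0.89 ± 0.34. It read 0.02165, 0.03235 and 0.02156 in the water rats and 0.04886, 0.02901 and 0.0675 in the DPG rats. In water 3 Cd3e lay below the dimmest probe well above background on that array (0.0287), so it entered the test through the DPG group only. Of 16 leukocyte markers tested 12 were above 0 (median 0.09), with 1 higher and 2 lower at the unadjusted threshold, or 0 and 2 without water 3. Cd163, a macrophage marker, had no probe that passed the filter. The summed signal overlapped, at 141.9 to 176.4 in the water rats and 140.5 to 190.2 in the DPG rats. Their part in the Lcn2 values was not tested.

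**Figure D4:**
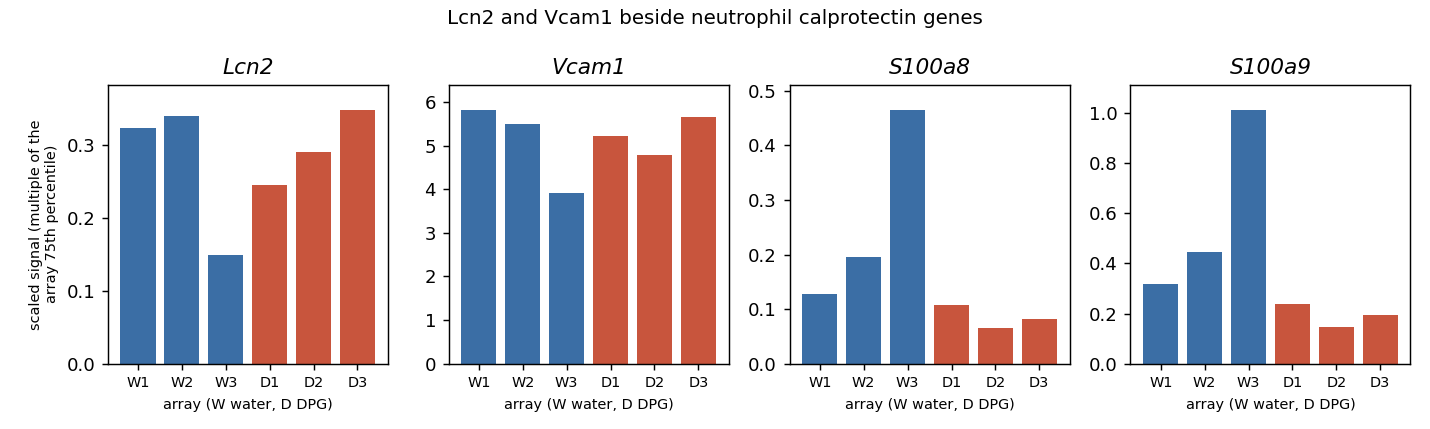
Scaled signal (multiple of the array's 75th percentile, linear axes from 0) of Lcn2, Vcam1, S100a8 and S100a9 in each animal, 1 bar per array, with water (W) in blue and DPG (D) in red. Water 3 has the lowest Lcn2 and Vcam1 bars and the highest S100a8 and S100a9 bars.

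Lcn2 and Vcam1 had the highest correlation of the 45 pairs of markers. Over the 6 animals Pearson's r of their log2 signals was 0.919 (exact permutation p = 0.0361, Benjamini-Hochberg adjusted over 45 pairs 0.844), and Spearman's rho was 0.771 (exact permutation p = 0.103, adjusted 0.985). It was 0.827 without water 3 and DPG 1, the arrays farthest from the median of Lcn2, and 0.581 without water 3 alone. The relation was not called after adjustment, but with 6 arrays 1 pair alone could not pass over 45 pairs. Its size rests in part on water 3. The promoters of these genes are shown because, of the 9 markers with a promoter in the table, only these 2 matched the consensus of NF-kappaB. They were thus picked by that match and not by their correlation. The sequences are from RefSeq on the build GRCr8, 5′ to 3′ along the gene, over the 250 bases before the transcription start. Capitals mark matches to the consensus of NF-kappaB, the transcription factor of inflammatory signalling. The Lcn2 window is chr3:36081781-36082030 on the minus strand and the Vcam1 window is chr2:206742784-206743033 on the minus strand.
Lcn2: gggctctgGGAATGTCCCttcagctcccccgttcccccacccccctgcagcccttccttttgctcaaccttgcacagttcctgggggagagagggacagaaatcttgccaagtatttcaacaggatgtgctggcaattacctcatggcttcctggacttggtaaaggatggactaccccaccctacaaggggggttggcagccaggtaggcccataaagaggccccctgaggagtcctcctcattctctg
Vcam1: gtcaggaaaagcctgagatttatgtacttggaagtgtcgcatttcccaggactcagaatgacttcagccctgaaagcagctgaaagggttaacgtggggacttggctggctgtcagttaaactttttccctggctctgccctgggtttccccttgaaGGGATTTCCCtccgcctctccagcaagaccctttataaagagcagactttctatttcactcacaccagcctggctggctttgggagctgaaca
The Lcn2 match lay on the opposite strand at positions -242 to -233 from the start, and the Vcam1 match at -93 to -84 read as a match on both strands. The NF-kappaB consensus was searched by its usual 10-letter form on both strands in windows of 300 bases, 250 before and 50 after each start. It was present for 2 of the 9 markers with a promoter in the table, and in 2087 of 27457 promoters (7.6%). The letters TATAAA, on either strand, were present for 5 of the 9, namely Spp1, Tff3, Vcam1, Krt8 and Icam1, and in 14.3% of all promoters. In Tff3 they lay at -23 to -18. A match describes these letters only, and no binding was measured. Sites that depart from the searched form were not counted, so a marker without a match may still hold one.

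Of the 45 pairs, 26 had r above 0 and 19 below, with a median of 0.08, and 0 passed after adjustment. The second pair with an unadjusted exact permutation p under 0.05 was Tff3 and Icam1, at r = -0.822 (exact permutation p = 0.0375, adjusted 0.844). Their ranks were exactly opposite (rho = -1.0, exact permutation p = 0.00278, adjusted 0.125). Neither gene's groups overlapped, and the correlation of their deviations from the group means was -0.446. It was -0.961 without water 1 and DPG 1, the arrays farthest from the median of Tff3.

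Havcr1 encodes kidney injury molecule 1, a receptor that lets surviving proximal tubule cells engulf dead ones. Scaled signal was 0.0764, 0.0347 and 0.0381 in the water rats and 0.0377, 0.0371 and 0.0599 in the DPG rats. Water 1 and DPG 3 were the high animals, and the other 4 lay between 0.0347 and 0.0381. The difference on the log2 scale was -0.09 ± 0.35 (95% interval -0.95 to 0.78, limma adjusted p = 0.940), and it was 0.27 without water 1. Set against the dimmest probe well above background on the same array, Havcr1 was lowest in water 3, at 1.33 times that level, so this gene was measured near the limit of detection. Havcr2, a relative in the same family, had no probe that passed the filter, and Timd2 had -0.06 ± 0.36.

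Clu encodes clusterin, a secreted chaperone that also blocks the terminal complement complex. Its scaled signal was 7.47, 11.5 and 14.0 in the water rats and 6.94, 11.95 and 9.16 in the DPG rats. The water rats spanned nearly the whole range, and DPG 1 was the 1 animal outside it. The log2 fold change was -0.22 ± 0.29 (95% interval -0.94 to 0.50, limma adjusted p = 0.787), the second probe gave -0.27 ± 0.32, and leaving out 1 animal moved the value from -0.48 (without water 1) and -0.42 (without DPG 2) to -0.02 (without water 3, and also without DPG 1).

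Of 17 partners of clusterin in the terminal complement and among chaperone receptors 11 were tested, with 1 higher and 2 lower at the unadjusted threshold (median 0.04, or -0.17 without water 3). C8b, which encodes a chain of complement component 8, read 0.182, 0.140 and 0.165 in the water rats and 0.0931, 0.0952 and 0.0721 in the DPG rats. Its groups did not overlap, and the log2 fold change of -0.90 ± 0.15 was not called (limma adjusted p = 0.220). The receptor gene Tgfbr2 had -0.19 ± 0.06, and Hsf1, which encodes the heat shock factor that drives Clu, had 0.24 ± 0.10.

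Spp1 encodes osteopontin, a secreted adhesive phosphoprotein made by distal and injured tubules that draws macrophages and binds Cd44 and integrins. Its signal was 8.97, 8.47 and 8.86 in the water rats and 7.79, 12.9 and 12.4 in the DPG rats. DPG 2 and DPG 3 were above every water rat, and DPG 1 was below all of them. Its log2 fold change was 0.30 ± 0.20 (95% interval -0.20 to 0.79, limma adjusted p = 0.594). Without DPG 1 it was 0.53 ± 0.08 (limma adjusted p = 0.485), and without DPG 2 it was 0.16.

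Cd44 encodes the hyaluronan receptor that appears on regenerating tubule cells and activated leukocytes. The probe that stood for it read 0.277, 0.373 and 0.414 in the water rats and 0.370, 0.314 and 0.467 in the DPG rats. The groups overlapped, and the log2 fold change was 0.11 ± 0.21 (95% interval -0.39 to 0.62, limma adjusted p = 0.848). The other 2 tested Cd44 probes gave 0.06 ± 0.15 and -0.05 ± 0.20. The remaining 3 Cd44 probes were not well above background on all arrays of either group and entered no test.

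Of 19 partners of these adhesion and matrix genes 13 were tested, with 7 above and 6 below 0 (median 0.03) and with 1 higher and 0 lower at the unadjusted threshold. Without water 3 these counts were 0 and 1. The 1 higher was Hyal1, the gene of a lysosomal hyaluronidase, at 0.21 ± 0.06 (limma adjusted p = 0.327), or 0.19 ± 0.08 without water 3. The integrin gene Itgb5 had -0.19 ± 0.09, or -0.26 ± 0.08 and past that threshold without water 3, and Ezr, which encodes ezrin and links Cd44 to the cytoskeleton, had -0.15 ± 0.07. The leukocyte integrin genes that bind Icam1 gave 0.17 ± 0.13 for Itgb2 and 0.21 ± 0.22 for Itgal. Itgam had no probe that passed the filter.

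Timp1 encodes tissue inhibitor of metalloproteinases 1, which is induced in scarring kidney. Its log2 fold change was the smallest in size of the 10. Scaled signal was 2.37, 2.28 and 2.23 in the water rats and 2.39, 2.11 and 2.49 in the DPG rats, with DPG 2 the lowest and DPG 3 the highest animal. The difference on the log2 scale was 0.02 ± 0.09 (95% interval -0.19 to 0.23, limma adjusted p = 0.949), or between 0.876 and 1.17-fold.

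Its relative Timp3, whose product is bound to the matrix, read 3.19, 2.93 and 2.90 in the water rats and 2.26, 2.29 and 2.41 in the DPG rats. Its groups did not overlap, and the log2 fold change of -0.37 ± 0.07 was not called (limma adjusted p = 0.232). Timp4 had -0.32 ± 0.11, and Adamts1, a secreted metalloproteinase gene, had -0.61 ± 0.21. Of 16 genes of metalloproteinases and TIMPs 11 were tested, with 0 higher and 3 lower at the unadjusted threshold (median -0.02), or 1 lower without water 3. Mmp3, Mmp7, Mmp13 and Mmp19 had no probe that passed the filter. Fibroblast and mural cell markers, cells that also make TIMPs, summed to 30.8 to 39.5 in the water rats and 31.9 to 42.8 in the DPG rats, with 8 of 11 above 0 (median 0.09), or 4 of 11 without water 3. At the unadjusted threshold 1 was higher and 0 lower, or 0 and 0 without water 3. Rgs5, a pericyte gene, had 0.29 ± 0.10, the smooth muscle gene Tagln 0.38 ± 0.17 and the fibroblast receptor gene Pdgfra 0.09 ± 0.11. The part of those cells in the TIMP values was not tested.

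Beyond the 10 markers, 33 of 36 other genes known from tubular injury and repair were tested, with 17 above and 16 below 0 (median 0.01). At the unadjusted threshold 4 were higher and 1 lower, or 2 and 1 without water 3. Plin2, which encodes a lipid droplet coat protein, read 26.5, 28.15 and 21.8 in the water rats and 19.7, 18.9 and 18.9 in the DPG rats, a log2 fold change of -0.40 ± 0.11 (limma adjusted p = 0.293). Anxa2, which encodes a calcium-dependent membrane-binding protein, had 0.36 ± 0.10, and Cd24, a surface glycoprotein gene of progenitor-like tubule cells, had 0.38 ± 0.13. The groups of these 3 genes did not overlap, and 0 of the 33 passed the adjusted threshold.

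Of 20 genes of normal tubule function that fall in damaged kidneys, 7 were above and 13 below 0 (median -0.10), with 4 higher and 4 lower at the unadjusted threshold, or 3 and 2 without water 3. Umod, which encodes uromodulin of the thick ascending limb, read 483.1, 517.4 and 499.3 in the water rats and 577.9, 626.6 and 581.5 in the DPG rats (0.25 ± 0.07, limma adjusted p = 0.298). Ggt1, the brush border enzyme gene, had 0.40 ± 0.11, and Slc5a12, also on the convoluted-segment list, had -0.29 ± 0.08.

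Markers were read beside the labelled tissue. Levels of different probes cannot be compared, so these values describe the samples and do not settle the label. Slc34a1, the phosphate transporter gene of the proximal tubule, read 296.5 to 391.7 over the 6 arrays. Markers of urothelium and papilla, tissues that lie deeper than the cortex, summed to 1.06 to 1.15 in the water rats and 1.06 to 1.12 in the DPG rats. Upk1a, a uroplakin gene, had 0.54 ± 0.12, the transcription factor gene Gata3 -0.15 ± 0.06 and Upk3a -0.79 ± 0.47. Upk2 and Psca had no probe that passed the filter. In DPG 3 Upk3a read 0.00954, below the dimmest probe well above background on that array (0.0189), so it entered the test through the water group only. Adipocyte markers summed to 190.4 to 205.1 in the water rats and 151.6 to 182.5 in the DPG rats, of which Pck1, also a proximal tubule gene, made up 186.3 to 201.3 and 147.9 to 177.5. The fat hormone gene Adipoq had -0.45 ± 0.14, Pck1 -0.29 ± 0.09 and the lipid droplet gene Cidec 0.56 ± 0.20.

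For each marker the genes with the most similar pattern over the 6 arrays were sought among 11923 other named genes, by Pearson's r of log2 signal, as a description. Closest to Tff3 were Aspg, with r = 0.9996 and a log2 fold change of 0.80, and Etnk1, with 0.997 and 0.18. Closest to Krt8 were Slc9a9 (0.995) and Ugcg (0.994), and closest to Icam1 were Commd5 (0.996) and Gmip (0.989). For Lcn2 they were Zfpm2 (0.983) and Slamf8 (0.980), and for Vcam1 Ptger4 (0.994) and Strn (0.987). Havcr1 was followed by Ube2q1 (0.996) and Zfp575 (0.985), and Clu by Lsm3 (0.990) and SPATA45 (0.988). Spp1 had Mcmbp (0.998) and Parl (0.994), Timp1 had Wdr19 (0.991) and Adam19 (0.988), and Cd44 had H1f4 (0.998) and Rftn1 (0.987). No test was made of these values, since each is the highest of a search over 6 arrays, and none of the 10 markers was itself the closest gene of another.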

How the data were processed

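Total RNA of renal cortex was labelled with Cy3 and hybridised to 1 array per rat, per the labels' protocols. Scanner files came from Agilent Feature Extraction 10.7.1.1 per the file headers (10.7 per the submitters' processing notes). The deposited processed signal is a background-subtracted linear intensity, unscaled between arrays, per the file headers. A deposited series table holds the ratio of that signal to about each array's 75th percentile (column medians 0.110, 0.111, 0.114, 0.111, 0.108 and 0.112, water 1 to 3 then DPG 1 to 3). It is uncentred and runs in the scanner's direction, and served as an alternative.

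Here the log2 of that signal was taken relative to the 75th percentile of its array. Of 61537 probes, 40406 were well above background on all 3 arrays of a group, and 23 with outlier flags were dropped. In all 28206 probes matched 1 RefSeq gene symbol (GRCr8) by accession and 33331 matched none. The brightest probe stood for a gene and unnamed probes stood alone, which gave 31641 features, 11924 with a symbol. Groups came from the labels, and the comparison used limma 3.58.1 under R 4.3.3 (lmFit, then eBayes, with 4 residual and 1.96 prior degrees of freedom, Benjamini-Hochberg over all features at 0.05). A value followed by ± is a log2 fold change of DPG over water and limma's standard error. Pairs of markers were tested by exact permutation in Python 3.11.15. An exact permutation test of 3 against 3 cannot go below a two-sided p of 0.1.

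The text names all 10 markers with their probes, up to 3 genes per list by smallest p, and 2 genes per marker by highest r. Itgb2, Itgal and Timd2 were added by role and Slc34a1 for the tissue check, and Cyp2e1 after its values were seen. Markers and lists were chosen with earlier results of these data known. The fit was tested on simulated data. Alternatives were normexp (planned on the mean, run on the median signal), median and quantile scaling, no filter and a stricter filter, flagged spots kept, mean and separate probes, variance trend, array weights, a block on the replicate number, use of the deposited table, and each animal left out. Gene lists were also counted without water 3, an alternative added after seeing the data. The labels do not say whether rats of a group were housed apart.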

Additional observations from a re-analysis of the deposited data

Results flagged for a closer look

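1 probe of Cd44 that entered no test was bright on 1 array. Its scaled signal on the DPG 1 array was 0.133, and it was not well above background on the other 5. Against the highest background floor of those 5 arrays (0.0287) it was at least 4.63-fold brighter. It carried 0 outlier flags. The 3 tested Cd44 probes read DPG 1 within the range of the other animals. The cause was not tested.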

How the results depend on the processing

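Under all 12 alternatives that kept the 6 arrays, 0 markers and 0 features passed the adjusted threshold, and 2 to 3 markers and 3179 to 5008 features passed the unadjusted one, against 3 and 3886. Leaving out 1 animal gave 0 markers and 0 to 3 features past the adjusted threshold (3 without water 2, 1 without DPG 2), and 1 to 3 markers and 2747 to 4189 features past the unadjusted one. Without water 2, and without water 3, that was 1 marker, Tff3. Groups did not overlap for 3 markers, or 3 to 4 with 1 animal left out, a count recomputed under alternatives after seeing the data. The share of all features was counted for the main setting only (19.6%). Smaller groups separate more easily, so the count with 1 animal left out is not read as a result. Over 19 settings, the main one included, Tff3 passed the unadjusted threshold in 19, Krt8 in 17 and Icam1 in 11. With normexp Timp1 was -0.0732 and Cd44 -0.0209, both opposite in sign to the reported values. With 1 animal left out, signs also turned for Havcr1 (-0.314 to 0.269, above 0 without water 1, DPG 1 or DPG 2), Lcn2 (-0.185 to 0.407, below 0 without water 3), Cd44 (-0.0541 to 0.249, below 0 without water 1 or DPG 3), Vcam1 (-0.118 to 0.167, below 0 without water 3 or DPG 3) and Timp1 (-0.0327 to 0.0888, below 0 without water 3, DPG 1 or DPG 3). None of these was called under any setting, and the causes were not tested.

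With the replicate number as a block, 2 markers and 3179 features passed the unadjusted threshold. Same-numbered rats did not deviate together (r of -0.019, -0.089 and -0.069). With 3 arrays per group these values cannot exclude that the numbers pair the animals. A slide block could not be fitted, since each group lay on its own slide.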
